A study of Mus musculus with 92 samples.

Results

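The libraries described here are ER-Hoxb8 microglia-like cells (MLC), recovered from mouse brains after transplantation, set against microglia taken directly from the brain. Members were chosen by their labels: 6 libraries of ER-Hoxb8 cells put into the CSF1R KO brain and isolated again, and 7 of unmanipulated microglia with library names WT1 to WT7. YSWT1 and YSWT2 carry the same title as those microglia and were left out; with them added there were 1690 DEGs (genes past the limits given below) instead of 1731. The 6 and 7 make 13 of the 92 samples in the series. The study uses ER-Hoxb8 cells, marrow progenitors that an estrogen-regulated Hoxb8 gene keeps dividing until estrogen is withdrawn, as a stand-in for microglia that can be grown and edited in culture. All mice were of the FVB strain. The donor cells carry the label genotype WT, and were injected intracranially into Csf1r-/- pups within days of birth. These hosts lack the receptor for CSF1 and so have no microglia of their own. The microglia came from uninjected FVB WT mice of matched age, and neither group had a drug treatment. The ER-Hoxb8 macrophages grown in vitro, used below for levels only, came from FVB Cas9 mice (genotype Cas9 het), so they differ from the transplanted cells in genotype too. Cells were sorted by flow cytometry and their RNA was made into low-input libraries; the study's flow cytometry of such brain cells gated on GFP, CD45 and CD11B, and the labels do not give the gate for these libraries. Because cell origin, injection and host genotype change together between the groups, their parts in any difference cannot be told apart.

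Microglia are the resident macrophages of the brain. They arise from yolk sac precursors, survive through signals to CSF1R, and keep a set of homeostatic genes that depends on TGF-beta and on the transcription factor SALL1. Macrophages of marrow origin can fill an emptied niche and take on part of this program while keeping genes of their own lineage. Macrophages also respond to interferons: type I interferons, made by many cells, and interferon gamma, made mainly by T and NK cells, switch on genes for antiviral proteins, guanylate-binding GTPases, chemokines and antigen presentation.

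The 6 ER-Hoxb8 MLC libraries fall under different library names, 3 beginning GFPHox (GFPHox1, GFPHox2, GFPHox4) and 3 beginning WTHox (WTHox1Lo, WTHox2Lo, WTHox4Lo). The labels do not say what the names mean, so values are given for each set. Depth, estimated from the value that a single count takes in each library, ran from 8.60 M counts (GFPHox1) to 25.0 M in ER-Hoxb8 MLC and from 19.3 to 32.8 M in microglia. Levels are the deposited log2 CPM (CPM, reads of a gene scaled to a common library size), whose lowest value, standing for no reads, is -3.62.

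Markers matched the label of the microglia: P2ry12, the ADP receptor that marks them, lay between 14.15 and 14.84 log2 CPM in all 7. Hoxb8, the gene used to immortalize the progenitors, gave no mark of the ER-Hoxb8 cells: it was at the lowest value in all 13 libraries, and at -3.62 to -0.27 in the 3 libraries of ER-Hoxb8 macrophages grown in vitro. Ptprc, which encodes the leukocyte antigen CD45, ran from 10.05 to 11.82 log2 CPM in ER-Hoxb8 MLC, above the 8.23 to 9.71 of microglia. Itgam, which encodes CD11B, lay the other way, at 7.44 to 8.55 against 9.3 to 9.82. The labels give no sex. The Y-linked gene Ddx3y stood at 6.63 log2 CPM in WTHox2Lo and at 2.98 or less in the other ER-Hoxb8 MLC, and at 6.23 to 7.48 in WT1, WT2 and WT3 against 0.49 or less in WT4 to WT7. Within ER-Hoxb8 MLC other Y-linked genes did not all follow: Eif2s3y was also highest in WTHox2Lo (5.77), but Kdm5d stood at 1.47 to 2.95 and Uty at 2.24 to 3.64 over the 6 libraries. Hoxb8, Ptprc, Itgam, Ddx3y and Eif2s3y were chosen after their values were seen.

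Principal component 1, which carried 47.9% of the variance, put every ER-Hoxb8 MLC library on the other side from every microglia library. Component 2, with 16.6%, separated WTHox1Lo and WTHox2Lo (-96.8 and -72.4) from the other 4 ER-Hoxb8 MLC libraries (27.3 to 87.5), and WT4 and WT5 (-72.0 and -60.2) from the other 5 microglia. ER-Hoxb8 MLC were also less alike: a library's median correlation across genes with its own group was 0.763 to 0.843, against 0.883 to 0.960 for microglia.

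Of 11494 genes tested with limma, 674 (5.86%) were higher in ER-Hoxb8 MLC and 1057 (9.2%) were lower, where a gene counts (a DEG below) if its adjusted p is under 0.05 and its log2 fold change (log2FC) is 2 or more either way. The values of the groups did not overlap for 1906 genes (16.6%), among them 516 of the DEGs that were higher and 709 of those that were lower. The median log2FC over all genes tested was -0.19. Quantile normalization moved that median to -0.06 and the split to 933 higher and 832 lower, so that 52.9% of DEGs were higher instead of 38.9%. Which direction holds more genes therefore rests on the scaling. In bulk libraries, fewer cells of a type and less RNA per cell cannot be told apart.

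**Figure D1:**
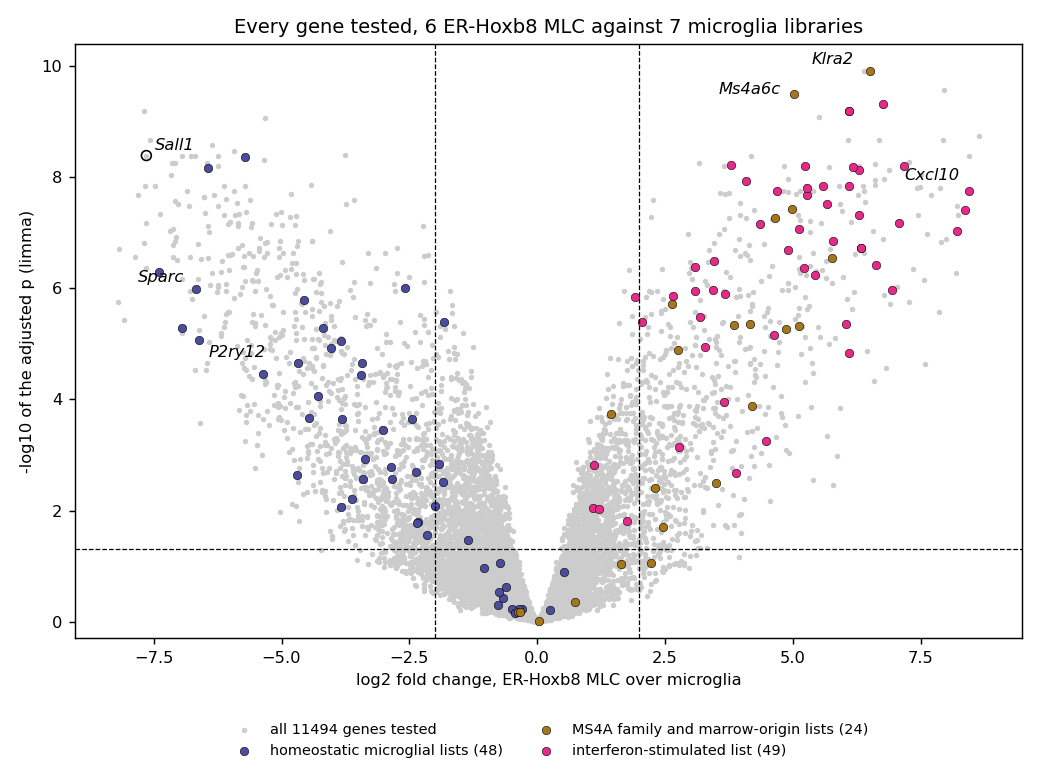
Each point is a gene tested, with its log2 fold change (ER-Hoxb8 MLC over microglia) on the x axis and the -log10 adjusted p from limma on the y axis; dashed lines mark log2FC of -2 and 2 and adjusted p of 0.05. Genes of the homeostatic lists lie to the left or near 0, and 44 of the 49 interferon-stimulated genes lie past the lines on the right; brown points are the MS4A family and the marrow-origin list.

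RNA of many genes for homeostatic surface proteins of microglia was lower. Of 23 genes for receptors and surface proteins of microglia tested, 16 fell and 0 rose, with a median log2FC of -3.37, and the values of 12 did not overlap. P2ry12 had a lowest, median and highest value of 4.76, 7.19 and 10.57 log2 CPM in ER-Hoxb8 MLC and of 14.15, 14.41 and 14.84 in microglia. Every ER-Hoxb8 MLC library thus lay below every microglia library, GFPHox1 and GFPHox2 nearest and WTHox4Lo farthest. It fell by 6.61 on the log2 scale (SE 0.77, adjusted p = 8.74e-06), or 97.7-fold. Gpr34, a lysophosphatidylserine receptor, ran over 5.26, 9.28 and 10.11 log2 CPM in ER-Hoxb8 MLC and 12.68, 12.83 and 13.58 in microglia, with no overlap and a log2FC of -4.29 (SE 0.63, adjusted p = 8.87e-05). Siglech, a lectin of microglia, stood at 1.43, 5.45 and 7.43 log2 CPM against 10.52, 10.81 and 11.18 (log2FC -5.36, SE 0.72, adjusted p = 3.48e-05). Its groups were apart as well, and the value of 1.43 belongs to WTHox4Lo.

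Tmem119, a membrane protein used to tell microglia from other macrophages, kept more of its level in some libraries. Its lowest, median and highest values were 4.13, 8.29 and 10.21 log2 CPM in ER-Hoxb8 MLC and 9.51, 12.10 and 13.06 in microglia. The ranges overlap, because GFPHox1 (10.21) and GFPHox4 (9.72) reach the microglia with the least Tmem119, WT4 (9.52) and WT5 (9.51), while GFPHox2 (9.31) stays just below. Over all 6 libraries it fell by 3.62 on the log2 scale (SE 0.90, adjusted p = 6.27e-03), whereas with the GFPHox libraries alone the log2FC was -1.86 and did not pass. Cx3cr1, the fractalkine receptor, followed the same line: 5.89, 9.09 and 11.49 log2 CPM against 10.68, 12.77 and 13.28 (log2FC -3.42, SE 0.75, adjusted p = 2.69e-03), and -1.82 with the GFPHox libraries alone. For both genes the WTHox libraries lay below all microglia. P2ry13, another ADP receptor, was the most abundant of the list in ER-Hoxb8 MLC (mean 9.10 log2 CPM, not corrected for length). Its values of 7.66, 8.92 and 10.87 lay under the 12.06, 12.62 and 12.98 of microglia (log2FC -3.43, SE 0.44, adjusted p = 2.23e-05).

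Csf1r, the gene that the hosts lack and the donor cells carry, was present in each ER-Hoxb8 MLC library. It stood at 11.37, 10.23 and 10.33 log2 CPM in GFPHox1, GFPHox2 and GFPHox4 and at 8.61, 7.97 and 6.08 in WTHox1Lo, WTHox2Lo and WTHox4Lo, against 10.09 or more in microglia. The GFPHox values therefore lie within the microglial range and the WTHox values below it. Over the group its log2FC was -2.15 (SE 0.70, adjusted p = 0.0275). Csf1r was chosen after its values were seen.

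**Figure D2:**
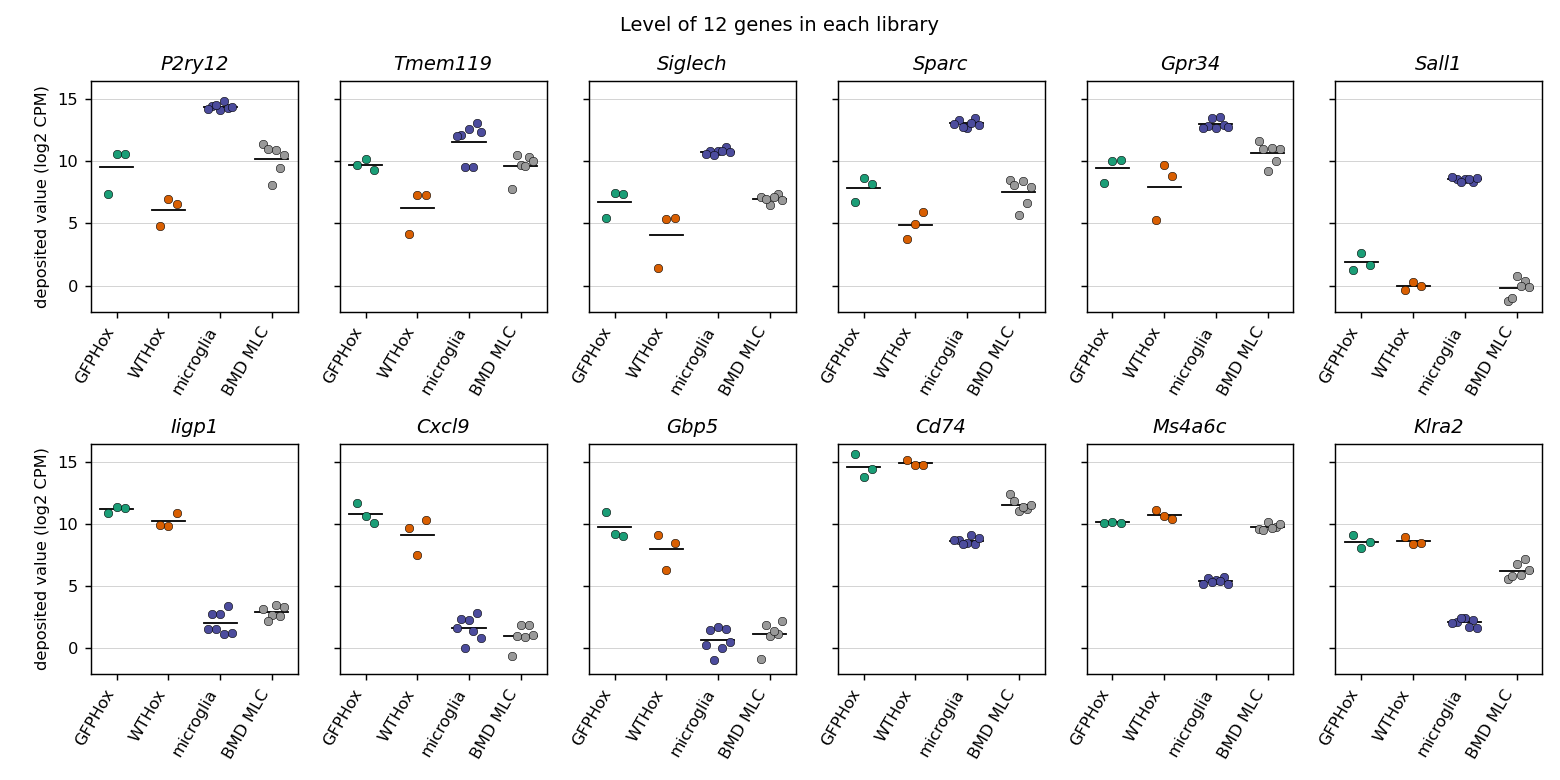
Deposited level (log2 CPM, y axis) of 12 genes in each GFPHox, WTHox, microglia and BMD MLC library; points are libraries and bars are group means. In the upper row the microglial genes are lower in the transplanted cells, P2ry12 at 4.76 to 10.57 log2 CPM in ER-Hoxb8 MLC against 14.15 or more in microglia, and in the lower row the other genes are higher, Iigp1 at 9.83 or more against 3.44 or less.

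Among 25 secreted, lysosomal and other homeostatic genes tested, 15 fell and 0 rose (median log2FC -2.45), and the values of 15 genes did not overlap. Sparc, a matrix-binding glycoprotein, had 3.75, 6.35 and 8.70 log2 CPM in ER-Hoxb8 MLC and 12.71, 13.02 and 13.53 in microglia (log2FC -6.67, SE 0.64, adjusted p = 1.03e-06). No ER-Hoxb8 MLC library came near the microglial range. Cst3, the protease inhibitor cystatin C and the most abundant gene of the list in microglia (16.23 log2 CPM, not corrected for length), ran over 10.95, 11.80 and 13.22 log2 CPM in ER-Hoxb8 MLC against 15.74, 16.27 and 16.61, without overlap (log2FC -4.20, SE 0.47, adjusted p = 5.13e-06). Olfml3, a secreted olfactomedin-domain protein, was also apart at 2.98, 6.59 and 7.98 against 9.51, 10.24 and 10.88 (log2FC -3.82, SE 0.62, adjusted p = 2.29e-04). Aif1, which encodes the pan-macrophage protein IBA1, did not pass the test (log2FC 0.51).

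Among transcription factors of microglia a few changed by much and most by little. Of 24 tested, 6 were lower and 1 was higher, with a median log2FC of -0.55. Sall1, a zinc finger repressor that holds microglial identity, had -0.38, 0.79 and 2.66 log2 CPM in ER-Hoxb8 MLC and 8.31, 8.60 and 8.74 in microglia. The groups lie far apart, for a log2FC of -7.64 (SE 0.40, adjusted p = 4.12e-09), a 200-fold difference. Sall1 was higher in each GFPHox library (1.29 to 2.66) than in each WTHox library (-0.38 to 0.28), a difference of 1.89 (adjusted p = 5.68e-03) that is under the fold limit. Its relatives Sall2 and Sall3 were lower as well (log2FC -5.55 and -2.65), and so were Smad3 (-3.38), a TGF-beta effector, Ets1 (-3.34) and Tal1 (-2.18). The gene that was higher is Bhlhe40 (log2FC 2.53, adjusted p = 8.81e-03), a basic helix-loop-helix repressor whose groups overlap through WTHox1Lo (0.56 log2 CPM). Its log2FC was 1.77 without GFPHox4 and WTHox4Lo and did not pass, and the call was lost under 2 of 29 alternatives. Among the factors that did not pass were Spi1, which encodes PU.1 (log2FC -0.23), Irf8 (-0.17) and Runx1 (0.04), known from other macrophages as well. All of these except Sall1 and Bhlhe40 were chosen after their values were seen.

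In the TGF-beta pathway 5 of 16 genes tested fell and 0 rose (median log2FC -0.86). The co-receptor Eng showed the largest change: -2.70, 0.60 and 2.59 log2 CPM against 4.39, 6.44 and 7.02, with no overlap (log2FC -5.75, SE 0.84, adjusted p = 8.71e-05). The others were Tgfbr3 (-4.89), Pmepa1 (-3.46), Smad3 (-3.38) and Smad7 (-2.05), the last 3 known as effectors or targets of the pathway. Tgfbr1, which encodes the signalling receptor, was lower without passing the fold limit (log2FC -1.84, adjusted p = 3.05e-03). Apart from Eng and Tgfbr1, these were chosen after their values were seen.

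The 12 largest losses among genes without overlap and with a mean of at least 5 log2 CPM in microglia reached beyond the lists. Gpr56, an adhesion receptor, led them with -2.10, 0.37 and 2.98 log2 CPM against 7.09, 8.83 and 9.71 (log2FC -8.19, SE 0.82, adjusted p = 1.78e-06). Tmem204, a membrane protein, followed at -3.62, -3.12 and 0.46 against 5.03, 6.12 and 6.50 (log2FC -8.18, SE 0.67, adjusted p = 1.95e-07), so that most ER-Hoxb8 MLC held almost none of it. The cysteine protease Ctsf stood at -3.62, -1.27 and 2.23 against 5.37, 7.56 and 8.62 (log2FC -8.08, SE 0.87, adjusted p = 3.70e-06). Then came, by log2FC, Gpr165 at -7.86, Sgce (a sarcoglycan) at -7.81, Thrsp (a regulator of lipid synthesis) at -7.70, Glrp1 at -7.65, Atp8a2 (a lipid flippase) at -7.64, Sall1, Nav3 at -7.48, Ecscr (a surface protein) at -7.40 and Gm6356 at -7.12. Among the 5 most abundant DEGs that were lower, with Cst3, P2ry12 and Sparc, was Lgmn, the lysosomal protease legumain, with 10.18, 12.13 and 12.82 log2 CPM against 13.51, 13.92 and 14.46. Its groups are apart but the step is small (log2FC -2.03, SE 0.41, adjusted p = 1.46e-03), and quantile normalization, among other alternatives, brought it under the fold limit, to -1.86.

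Interferon-stimulated genes rose almost as a block. Of 49 tested, 44 were higher in ER-Hoxb8 MLC and 0 were lower, with a median log2FC of 5.12, and 44 had values that did not overlap. Under quantile normalization 43 were higher. The summed level of the list was 37270, 28318 and 32534 CPM in GFPHox1, GFPHox2 and GFPHox4 and 13791, 23093 and 29146 CPM in WTHox1Lo, WTHox2Lo and WTHox4Lo, against 1023 to 1491 CPM in microglia. Each transplanted library thus lay above all microglia by a wide margin. The 5 that did not pass were all above 0: Ddx58 (log2FC 1.10), Irf9 (1.11), Slfn8 (1.21), Tor3a (1.76) and Dtx3l (1.91), of which only Ddx58 was not chosen after its values were seen.

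Chemokines that draw T cells and NK cells through CXCR3 were among the largest gains. Cxcl9 had a lowest, median and highest value of 7.50, 10.18 and 11.72 log2 CPM in ER-Hoxb8 MLC and 0.05, 1.60 and 2.81 in microglia (log2FC 8.36, SE 0.58, adjusted p = 3.91e-08). Cxcl10 ran over 6.13, 8.04 and 9.53 log2 CPM against -1.66, -0.27 and 0.57 (log2FC 8.45, SE 0.54, adjusted p = 1.76e-08), a 351-fold difference. For both, the library with the least in ER-Hoxb8 MLC was WTHox1Lo, still far above the microglia.

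Genes for some interferon-induced GTPases, a class that attacks vacuoles that hold pathogens, were also among the 12 largest gains. Iigp1 showed the largest log2FC of the genes without overlap: 9.83, 10.90 and 11.40 log2 CPM against 1.15, 1.54 and 3.44 (log2FC 8.65, SE 0.41, adjusted p = 1.85e-09), or 401-fold. The guanylate-binding protein Gbp6 stood at 8.34, 9.67 and 10.71 against 0.23, 1.07 and 2.45 (log2FC 8.45, SE 0.44, adjusted p = 4.12e-09). Gbp5, which promotes inflammasome assembly, stood at 6.28, 9.11 and 10.97 against -0.96, 0.48 and 1.70 (log2FC 8.20, SE 0.62, adjusted p = 9.29e-08). In each case even the lowest transplanted library exceeded the highest microglial library by several log2 units. The T cell-specific GTPase Tgtp1 reached a log2FC of 8.21 and its neighbour in the gene family, Tgtp2, one of 7.95. The rest of the 12 largest gains were the protease inhibitors Serpina3g (log2FC 8.23) and Serpina3f (7.90), the activation antigen Cd69 (8.20), the receptor chaperone Rtp4 (8.00) and Il18bp (7.93), the soluble antagonist of IL-18. Rtp4 lay at -3.62 to -0.39 log2 CPM in microglia, so the size of its change rests on the value that stands for no reads. Over the alternatives its log2FC ran from 4.99 to 8.41.

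Because these genes moved together, the promoters of 3 of them are shown, 250 bases before to 50 bases after the start site, 5′ to 3′ on the gene's strand, with sequences from RefSeq (build GRCm38.p6; the deposited table was made with GRCm39). Capitals mark TTTCNNTTT, part of the interferon response element, on either strand. Cxcl10 lies on the minus strand at chr5:92348840-92349139, Gbp5 on the plus strand at chr3:142496684-142496983 and Tgtp2 on the minus strand at chr11:49064163-49064462.
Cxcl10: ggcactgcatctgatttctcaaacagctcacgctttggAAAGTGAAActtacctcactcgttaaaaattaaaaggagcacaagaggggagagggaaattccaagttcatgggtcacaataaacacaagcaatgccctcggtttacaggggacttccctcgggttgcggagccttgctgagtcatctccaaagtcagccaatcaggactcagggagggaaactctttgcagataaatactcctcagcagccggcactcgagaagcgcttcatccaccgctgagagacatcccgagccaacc
Gbp5: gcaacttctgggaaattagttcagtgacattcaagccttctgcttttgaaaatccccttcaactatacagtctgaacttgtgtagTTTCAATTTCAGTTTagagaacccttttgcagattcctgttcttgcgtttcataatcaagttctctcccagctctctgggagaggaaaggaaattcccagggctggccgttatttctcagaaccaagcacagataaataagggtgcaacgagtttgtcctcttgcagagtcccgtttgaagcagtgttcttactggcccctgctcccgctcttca
Tgtp2: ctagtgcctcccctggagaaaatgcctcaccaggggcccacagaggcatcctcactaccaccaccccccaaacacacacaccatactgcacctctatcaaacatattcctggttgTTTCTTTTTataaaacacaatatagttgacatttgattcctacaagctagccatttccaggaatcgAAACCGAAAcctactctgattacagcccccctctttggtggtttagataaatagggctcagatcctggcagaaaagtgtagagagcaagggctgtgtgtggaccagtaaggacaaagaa

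Cxcl10 holds the letters at 1 place, Gbp5 at 2 places that overlap and Tgtp2 at 2. Promoters were found for 8490 of the 11494 genes tested. TTTCNNTTT stood in 27 of 35 interferon-stimulated genes with a promoter (77.1%), in 25.3% of DEGs that were higher, in 10.6% of DEGs that were lower and in 10.2% of all genes with one. TGANTCA, the AP-1 letters, stood in 11.5% of DEGs that were higher, 6.46% of those lower and 6.16% of all, and in 28.6% of the interferon-stimulated genes with a promoter. The other motifs searched on both strands were GAGGAAGT for PU.1 (5.32%, 3.83% and 4.18%, in the same order), TAAAAATA for MEF2 (1.28%, 1.45% and 1.53%) and the E-box CACGTG (6.17%, 10.2% and 11.9%). These are shares of genes with matching letters, not of bound sites, and TTTCNNTTT differs most between the classes. In the interferon-stimulated list both TTTCNNTTT and TGANTCA exceed their share in all genes.

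Antigen presentation rose along both MHC classes. Of 10 class II genes tested, 7 were higher and 1 was lower (median log2FC 3.29). Cd74, the invariant chain that guides class II molecules to peptide-loading compartments, had 13.76, 14.77 and 15.63 log2 CPM in ER-Hoxb8 MLC and 8.42, 8.71 and 9.09 in microglia, without overlap. Its log2FC was 6.07 (SE 0.30, adjusted p = 2.13e-09), and at a mean of 14.75 log2 CPM, not corrected for length, it was the most abundant gene among those that rose. The class II chain H2-Aa moved alike, from 3.75, 5.48 and 6.16 log2 CPM in microglia to 10.45, 11.43 and 12.77 (log2FC 6.28, SE 0.41, adjusted p = 2.10e-08). H2-Eb2 was the member that fell (log2FC -3.88, adjusted p = 1.02e-04), at levels of at most 2.08 log2 CPM in every library, and its call was lost on the log2(CPM + 1) scale. In class I and antigen processing 10 of 16 genes rose and 0 fell (median 2.79). Nlrc5, the coactivator of class I genes, went from -2.69, -0.90 and -0.11 log2 CPM in microglia to 5.66, 6.31 and 7.08 (log2FC 7.70, SE 0.50, adjusted p = 2.10e-08), again with no overlap. H2-D1, a class I heavy chain, rose by 3.60 (SE 0.45, adjusted p = 1.57e-05), while B2m, the shared light chain, stayed under the fold limit (log2FC 1.86, adjusted p = 2.53e-05).

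Transcripts for the interferons themselves were uneven. Ifng, which encodes interferon gamma, stood at 6.73 log2 CPM in GFPHox4 and 6.29 in WTHox4Lo, at 1.39 in GFPHox1, and at -1.03, -1.86 and -3.62 in GFPHox2, WTHox1Lo and WTHox2Lo. Microglia had -1.64 or less. Ifnb1 was at the lowest value in 4 of the 6 ER-Hoxb8 MLC libraries, with -0.11 in GFPHox1 and 0.36 in GFPHox4. Neither gene passed the filter on low values, so neither was tested, and both were chosen after their values were seen.

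Some markers of T cells and cytotoxic cells peaked in the same libraries as Ifng. Cd3g, a T cell receptor subunit, reached 6.51 log2 CPM in GFPHox4 and 7.12 in WTHox4Lo, against 0.80 to 4.49 in the other 4 and 2.06 or less in microglia (log2FC 3.25, SE 0.88, adjusted p = 0.0108). Gzmb, a granzyme of cytotoxic cells, reached 6.29 and 8.26 in these libraries and did not pass over the group (log2FC 2.98, adjusted p = 0.107). Of the whole list of 18 lymphocyte and NK markers, 10 were tested: Klrb1c and Cd3g rose, Cd79b fell (log2FC -2.37), and the median log2FC was 1.99. Quantile normalization gave 5 higher (median 2.99), and so did leaving out WTHox1Lo and WTHox2Lo (median 3.00). Without GFPHox4 and WTHox4Lo Klrb1c alone was higher (median 0.82), so the call of Cd3g rests on those libraries. Klrb1c, an NK receptor, had 1.67, 3.17 and 4.13 log2 CPM against -3.62, -1.80 and -0.45, without overlap (log2FC 4.69, SE 0.61, adjusted p = 2.43e-05). It did not peak with Ifng in WTHox4Lo, where it stood at 2.76 against 3.66 in GFPHox1, 3.57 in WTHox2Lo and 4.13 in GFPHox4. The list's summed level was 866, 598 and 1445 CPM in GFPHox1, GFPHox2 and GFPHox4, 289, 514 and 1424 CPM in WTHox1Lo, WTHox2Lo and WTHox4Lo, and 1111 to 1811 CPM in microglia. Ighm, a B cell immunoglobulin chain, was the most abundant of the list by its mean (8.66 log2 CPM in ER-Hoxb8 MLC and 10.26 in microglia, not corrected for length), with 9.61 log2 CPM in GFPHox4 and 7.72 in WTHox4Lo. No marker of the list was at 0 in a whole group.

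Interferon-stimulated genes were high with and without those libraries. Without GFPHox4 and WTHox4Lo, a choice made after seeing the data, 43 of the 49 were still higher and their median log2FC was 4.56. With GFPHox1 and GFPHox2 alone, chosen the same way, 44 were higher with a median of 4.58. In that last setting the lymphocyte and NK list still had 3 genes higher and 1 lower of 10 (median 1.43), so it is not free of lymphoid transcripts. What part the lymphoid transcripts have in the remaining values was not tested. Klrk1, an activating receptor best known from NK and T cells, was high in every ER-Hoxb8 MLC library at 7.21 to 9.95 log2 CPM, those with little Cd3g included, against 2.02 or less in microglia (log2FC 7.48, adjusted p = 1.53e-08). Cd3g, Gzmb and Klrk1 were chosen after their values were seen.

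Genes known from macrophages of marrow origin were higher than in microglia. Of 19 tested, 13 rose and 0 fell (median log2FC 3.84). The list is not independent of others: it shares Gbp2 and Ifi204 with the interferon-stimulated list. It also shares Ms4a7, Ms4a6c and Ms4a4a with the MS4A family. Klra2, an inhibitory Ly49-family receptor, had 8.07, 8.52 and 9.13 log2 CPM in ER-Hoxb8 MLC and 1.62, 2.15 and 2.45 in microglia (log2FC 6.50, SE 0.23, adjusted p = 1.27e-10). The groups lie far apart, GFPHox and WTHox alike, and the ER-Hoxb8 macrophages in vitro had 3.41 to 4.71. Of 8 MS4A family members tested, genes for 4-pass membrane proteins of leukocytes, 7 rose and 0 fell (median 4.52). Ms4a6c was at 10.11, 10.30 and 11.17 log2 CPM against 5.14, 5.38 and 5.73 (log2FC 5.03, SE 0.20, adjusted p = 3.17e-10), and Ms4a4c at 7.76, 9.17 and 11.67 against 3.09, 3.48 and 4.41 (log2FC 5.76, SE 0.49, adjusted p = 2.87e-07). Neither gene overlaps between the groups. In vitro these genes were lower still, Ms4a6c at 0.21 to 3.10 log2 CPM and Ms4a4c at -0.58 to -0.09. Lyz2, lysozyme of myeloid cells, rose by 2.30 (SE 0.54, adjusted p = 3.95e-03) over 10.61, 11.87 and 14.69 log2 CPM against 9.17, 9.56 and 10.61, but with the GFPHox libraries alone its log2FC was 1.31 and did not pass. In vitro Lyz2 stood at 15.66 to 15.86 log2 CPM, above every library in this comparison. Apoe did not pass at all (log2FC 0.74), with 10.68 to 12.81 log2 CPM in ER-Hoxb8 MLC and 7.92 to 12.51 in microglia.

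Some receptors for sugars, lipids and dying cells rose. Among C-type lectin receptors 8 of 16 rose and 0 fell (median log2FC 1.98), with Clec4n, the dectin-2 receptor for fungal mannans, at 6.60, 7.13 and 8.41 log2 CPM against -0.13, 2.32 and 3.24 (log2FC 5.23, SE 0.52, adjusted p = 1.46e-06). Scavenger and phagocytic receptors gave 4 higher and 0 lower of 14 (median 0.11). Msr1, the class A scavenger receptor, showed the cleanest step of that list, 8.25, 8.40 and 9.32 log2 CPM against 1.71, 2.27 and 2.57 (log2FC 6.39, SE 0.23, adjusted p = 1.27e-10). The other 3 were Axl, a receptor for phosphatidylserine bridging proteins (log2FC 5.57, adjusted p = 4.79e-07), the fatty acid transporter Cd36 (5.50) and Clec7a (2.50), the last pair chosen after their values were seen. Cd68, the most abundant of the list, did not pass (log2FC -0.56).

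Lists for other states of brain macrophages moved in both directions. Of 27 disease-associated microglia genes, 9 rose and 3 fell (median log2FC 0.74), from Axl at the top to Ank, a pyrophosphate transporter, at -4.63 (adjusted p = 3.93e-04). For border-associated macrophages it was 7 up and 2 down of 19 (median 0.63). The chemokine Ccl8 led the gains with 3.35, 7.98 and 9.31 log2 CPM against -2.78, -0.38 and 0.80 (log2FC 7.86, SE 0.82, adjusted p = 2.66e-06), whereas the lectin Cd209f fell (log2FC -4.80, adjusted p = 7.79e-03) with overlapping groups and a call lost under 4 of 29 alternatives. Cd163, a scavenger receptor that defines many border macrophages, did not differ past the threshold (log2FC -0.30) and had a median of 0.02 log2 CPM in ER-Hoxb8 MLC. The list as a whole therefore moved both ways.

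Inflammatory cytokines and chemokines rose in 11 of 20 genes tested and fell in 1 (median log2FC 3.38). Ccl7, a monocyte attractant, had 7.80, 10.96 and 11.83 log2 CPM in ER-Hoxb8 MLC and 1.54, 2.54 and 3.99 in microglia (log2FC 7.63, SE 0.59, adjusted p = 1.06e-07). Ccl12, a ligand of CCR2 and in ER-Hoxb8 MLC the most abundant of this list and of the interferon-stimulated list, had 7.98, 12.89 and 13.75 log2 CPM against 4.99, 6.40 and 6.88 (log2FC 6.09, SE 0.75, adjusted p = 1.44e-05). Both were apart from microglia in every library, with WTHox4Lo lowest for Ccl12 at 7.98. Ccl9 was the gene that fell (log2FC -4.41, SE 0.53, adjusted p = 1.17e-05).

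Complement genes rose more often than all genes tested (5.86% higher). Genes of Toll-like receptors and their partner proteins changed about as often as all genes. In complement 7 of 18 rose and 1 fell (median log2FC 0.10). C4b, a component of the classical pathway, rose from -3.12, 0.00 and 0.94 log2 CPM to 4.56, 7.74 and 8.01 (log2FC 7.56, SE 0.70, adjusted p = 7.13e-07). Its groups do not overlap. C1qb, the most abundant of the list, did not pass (log2FC -0.49). Of 8 Fc receptor and Fc receptor-like genes 1 rose and 2, both Fc receptor-like, fell (median 0.09): Fcgr4 gained 5.38 (SE 0.34, adjusted p = 1.76e-08), Fcrls had a log2FC of -4.70 and Fcrl1, chosen after its values were seen, one of -2.46. Of 17 genes for Toll-like receptors and partner proteins such as Cd14 and Myd88, 1 rose and 2 fell (median -0.23). The RNA sensor Tlr8 rose (log2FC 4.19, adjusted p = 2.13e-06). Tlr5 (-5.32, adjusted p = 4.53e-05) and Tlr6 (-2.11) fell, the last chosen after its values were seen.

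Most of the mitosis genes tested were higher. Of 24 mitosis and G2/M genes 18 rose and 0 fell (median log2FC 2.77), against 4 of 22 S phase and replication genes (median 1.42). Top2a, a topoisomerase of dividing cells, had 5.98, 7.21 and 8.56 log2 CPM in ER-Hoxb8 MLC and 2.67, 3.26 and 5.18 in microglia, without overlap (log2FC 3.55, SE 0.48, adjusted p = 3.87e-05). Rrm2, a ribonucleotide reductase subunit, had 5.82, 5.93 and 7.41 against 2.17, 2.60 and 4.10 (log2FC 3.36, SE 0.39, adjusted p = 8.13e-06). The mitosis list summed to 387 CPM in WTHox4Lo and 2085 CPM in WTHox2Lo at the extremes, against 59.9 to 192 CPM in microglia. Quantile normalization raised the mitosis count to 22 and the S phase count to 7.

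Metabolic and lysosomal lists had medians within a log2 unit of 0. The lysosome list had 1 gene higher and 4 lower of 33 (median log2FC -0.36): the dipeptidyl peptidase Ctsc rose (11.40, 12.65 and 13.52 log2 CPM against 9.67, 9.93 and 10.55; log2FC 2.61, SE 0.31, adjusted p = 1.20e-05), while Ctsl, Ctsd and Lgmn were among those that fell. Ctsl (-2.89) and Ctsd (-2.85) were chosen after their values were seen. Sterol synthesis had 2 of 22 lower (median -0.74), near the 9.2% of all genes tested, among them Cyp51 (log2FC -2.45), chosen after its values were seen. Cholesterol efflux had 3 higher and 2 lower of 20 (median 0.56). The apolipoprotein Apoc1 moved most there, 5.36, 8.95 and 10.49 log2 CPM against 1.74, 2.55 and 3.78 (log2FC 5.82, SE 0.67, adjusted p = 7.74e-06). In glycolysis and the hypoxia response 4 of 23 rose (median 0.65), led by Pfkp, the platelet-type phosphofructokinase (log2FC 5.76, SE 0.54, adjusted p = 8.01e-07). Of 9 mitochondrial transcripts tested 0 passed in either direction (median 0.80).

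Several other lists had calls, most of them in both directions. Siglecs gave 2 higher and 2 lower of 8 (median log2FC -0.59), with Siglec1 up (log2FC 3.18, adjusted p = 1.57e-05) and Siglech down. The Ly6 family gave 3 higher of 10 (median 0.74), led by Ly6a, which encodes SCA-1 (log2FC 6.16, SE 0.64, adjusted p = 2.41e-06). Adhesion, matrix and guidance genes gave 6 higher and 5 lower of 25 (median 0.56), from the integrin ligand Vcam1 (log2FC 6.44, adjusted p = 1.37e-05) to Sparc. Interleukin and growth factor receptors gave 5 higher and 7 lower of 31 (median -0.19, but 0.13 under quantile normalization). Il2rg, the common gamma chain of cytokine receptors, rose (log2FC 5.05, SE 0.33, adjusted p = 2.01e-08), and Tnfrsf17, the BAFF and APRIL receptor BCMA, fell from 4.49, 5.00 and 5.71 log2 CPM to -3.62, -2.84 and -0.73 (log2FC -7.67, SE 0.48, adjusted p = 1.45e-08). Immediate early and dissociation genes gave 1 higher (Fos, log2FC 3.97, adjusted p = 7.71e-06) and 1 lower (Rhob, -3.01, adjusted p = 3.95e-05) of 18, with a median of 1.01. The shares of this last list, unlike those of the others in this paragraph, are near or below those of all genes tested (5.86% higher and 9.2% lower). Quantile normalization gave 4 higher.

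Progenitor genes moved both ways. Of 10 primary granule and progenitor genes 2 rose and 2 fell (median log2FC -0.56, but 0.65 under quantile normalization and 0.79 without GFPHox4 and WTHox4Lo): Igsf6 (2.67) and Nkg7 (2.78) against Sox4 (-5.35, adjusted p = 4.93e-09) and Cd34 (-2.95), the last chosen after its values were seen. Igsf6 did not reach the fold limit with the GFPHox libraries alone (log2FC 1.61). Nkg7, also a cytotoxic cell gene, was highest in GFPHox4 (6.89 log2 CPM) and WTHox4Lo (8.38), against 1.90 to 4.36 in the other 4, and without these libraries its log2FC was 1.46 and did not pass. Among the Hox and Meis genes that maintain progenitors only 4 of 20 could be tested, and 2 fell (median -1.87), Meis1 most (log2FC -4.10, adjusted p = 4.98e-05).

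Within the group, the GFPHox and WTHox libraries differed in 503 genes, 274 (2.38%) higher and 229 (1.99%) lower in GFPHox. Quantile normalization changed these to 126 and 217, moving the median log2FC of all genes from 0.14 to 0.01 and the share that were higher from 54.5% to 36.7%. The count rests in part on single libraries, being 252 without GFPHox1 and 1010 without WTHox4Lo. Against the same microglia, in a joint fit with a mean for each set, GFPHox gave 632 genes higher (5.5%) and 876 lower (7.62%), and WTHox 837 (7.28%) and 1569 (13.7%). Separate fits without the other set gave 702 and 993 for GFPHox, and 832 and 1510 for WTHox. Of the DEGs from all 6 libraries, 485 that were higher and 648 that were lower were called in both sets, and 35 and 115 differed between the sets.

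Some microglial surface genes differed between the sets. Of the 23 homeostatic receptors, 7 were higher in GFPHox than in WTHox and 0 lower, and the median log2FC against microglia was -1.99 in GFPHox and -4.05 in WTHox. P2ry12 differed by 3.40 between the sets, Tmem119 by 3.52 and Fcrls, an Fc receptor-like gene of microglia, by 4.66 (adjusted p = 8.35e-03). Fcrls had 4.82 to 9.21 log2 CPM in GFPHox, 1.49 to 3.53 in WTHox and 8.79 to 11.08 in microglia, so the WTHox values lie far below. Over all 6 libraries its log2FC was -4.70 (SE 1.02, adjusted p = 2.34e-03), and -1.04, not passing, with GFPHox1 and GFPHox2 alone. Interferon-stimulated genes gave 0 differences between the sets out of 49 tested with limma at these limits, with medians against microglia of 4.84 and 5.11. The other homeostatic genes gave 4 higher and 0 lower in GFPHox of 25 tested, with medians against microglia of -1.99 and -2.77. In the plot of list medians the sets thus lie apart for the homeostatic receptors, less so for the other homeostatic genes. They lie close for interferon-stimulated genes.

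**Figure D3:**
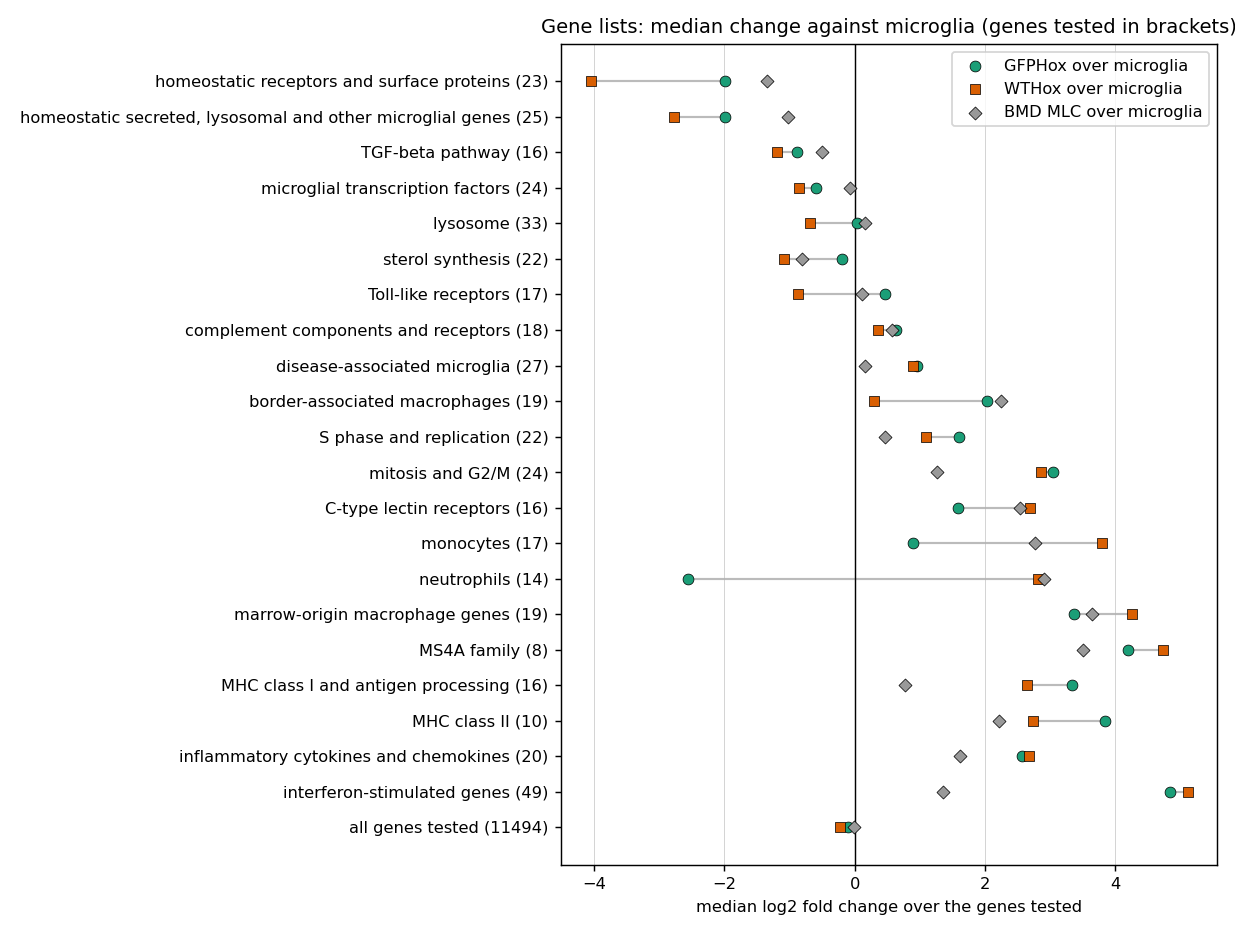
Median log2 fold change against microglia (x axis) over the genes tested of each list (y axis, number tested in brackets) for GFPHox, WTHox and BMD MLC libraries, which share the same microglia. The sets of ER-Hoxb8 MLC lie on opposite sides of 0 for the neutrophil list (-2.56 and 2.81) and close together for the interferon-stimulated list (4.84 and 5.11).

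Neutrophil genes differed most between the sets. All 14 neutrophil markers tested were lower in GFPHox than in WTHox, with a median log2FC of -5.06, while against microglia over all 6 libraries 0 passed in either direction (median 0.13). The list summed to 943, 312 and 524 CPM in GFPHox1, GFPHox2 and GFPHox4, to 22876, 48010 and 5774 CPM in WTHox1Lo, WTHox2Lo and WTHox4Lo, and to 1276 to 7070 CPM in microglia. Ngp, a neutrophil granule protein and the most abundant of the list, ran from 6.55 to 8.25 log2 CPM in GFPHox and from 9.86 to 13.86 in WTHox, around 8.85 to 11.22 in microglia. No marker of the list was at 0 in a whole group. Of 17 monocyte markers, 7 rose over the group (median 2.15), led by the integrin Itgal (6.48, 7.83 and 8.60 log2 CPM against 1.78, 2.77 and 3.11; log2FC 5.13, SE 0.33, adjusted p = 1.76e-08), and 7 were lower in GFPHox than in WTHox. Their sum was 618 to 1087 CPM in GFPHox, 4582 to 15947 CPM in WTHox and 223 to 651 CPM in microglia. Chil3, the most abundant, had 5.32 to 6.91 log2 CPM in GFPHox and 10.92 to 11.68 in WTHox. The part of these transcripts in the other differences between the sets was not tested.

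Leaving out WTHox1Lo and WTHox2Lo, the libraries richest in neutrophil transcripts, was tried after seeing the data. It gave 1688 DEGs, 1452 of them among the 1731 of all libraries, with 46 of 49 interferon-stimulated genes higher (median log2FC 5.16) and 14 of 23 homeostatic receptors lower (median -2.99). The largest differences by the naming rule were, higher in GFPHox, Ttr (log2FC 7.27), which encodes transthyretin, Bank1 (5.50), Gab1 (4.93), Fcrls and Procr (4.62), and, lower, Asprv1 (-7.15), Atp11b (-6.93), Lrg1 (-6.38), Stfa2l1 (-6.16) and Gm5483 (-6.09). Lrg1 and Stfa2l1 are known from neutrophils. With 3 libraries on each side these rest on few values.

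**Figure D4:**
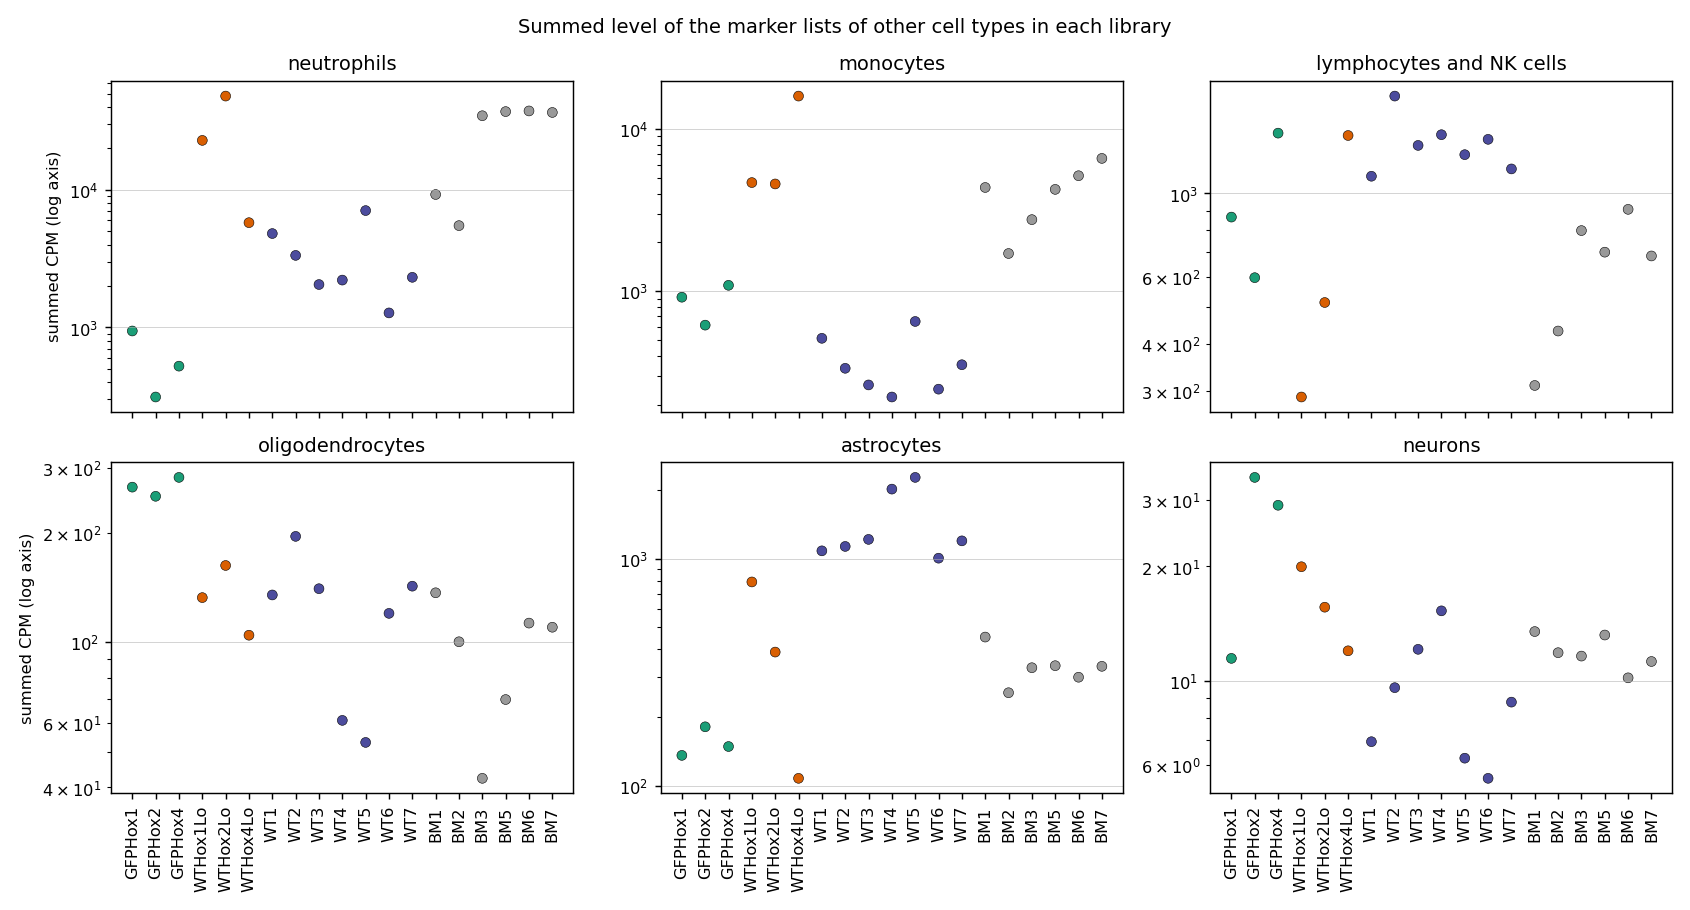
Summed CPM (y axis, log scale) of the marker lists of 6 other cell types in each library (x axis), colored by GFPHox, WTHox, microglia and BMD MLC. Neutrophil markers reach 48010 CPM in WTHox2Lo and 943 CPM or less in the 3 GFPHox libraries, and neuron markers do not pass 34.3 CPM in any ER-Hoxb8 MLC or microglia library.

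Markers of other brain cells were at low levels for neurons and higher for glia. Of 16 neuronal markers 3 could be tested and 0 passed (median log2FC -0.35, but 1.32 under quantile normalization), with sums of 11.5 to 34.3 CPM in ER-Hoxb8 MLC and 5.53 to 15.3 CPM in microglia. The most abundant was Camk2a at a mean of 1.10 log2 CPM in ER-Hoxb8 MLC and 1.46 in microglia, not corrected for length, and Slc17a7 was at 0 in all 13. Oligodendrocyte markers gave 1 higher of 5 tested (median 1.46). Their sum was 252 to 284 CPM in GFPHox, 105 to 163 CPM in WTHox and 53.2 to 195 CPM in microglia. The most abundant was Mbp in ER-Hoxb8 MLC (5.63 log2 CPM, not corrected for length) and Cnp in microglia (5.83), and Cspg4 was at 0 in all ER-Hoxb8 MLC. Astrocyte markers gave 2 higher and 2 lower of 7 (median 0.41). Their sum of 108 to 790 CPM in ER-Hoxb8 MLC lay below the 1006 to 2283 CPM of microglia, with falls in Glul (log2FC -2.83, adjusted p = 3.38e-04) and the glutamate transporter Slc1a3 (-4.71, adjusted p = 1.74e-07). Gfap, the defining astrocyte marker, went the other way, with 3.59 to 3.97 log2 CPM in 5 ER-Hoxb8 MLC libraries and -3.09 in WTHox1Lo, against 0.53 or less in microglia. Its groups overlap through WTHox1Lo (log2FC 3.09, adjusted p = 0.0347), and the call was lost under 11 of 29 alternatives.

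Endothelial and mural markers gave 1 higher and 1 lower of 5 tested (median log2FC -0.57), and summed to 53.6 to 121 CPM in ER-Hoxb8 MLC and 45.3 to 74.6 CPM in microglia. Flt1, the VEGF receptor, had 3.97, 5.24 and 5.84 log2 CPM against -1.64, -0.90 and -0.12 (log2FC 5.93, SE 0.40, adjusted p = 3.04e-08), while the defining marker Cdh5 was at 0 in all ER-Hoxb8 MLC. Pecam1 did not pass the fold limit (log2FC -0.57). Erythroid and platelet markers gave 0 higher and 1 lower of 6 (median -1.19), the platelet glycoprotein Gp9 (log2FC -7.12, SE 0.57, adjusted p = 1.64e-07). Their sum was 232 to 7696 CPM in ER-Hoxb8 MLC, highest in WTHox2Lo, and 326 to 7777 CPM in microglia, with Hba-a2 the most abundant. The part of any of these cell types in the differences above was not tested.

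Marrow cells transplanted without immortalization into the same kind of host (BMD MLC, 6 libraries) are the closest other group, since injection and host genotype are shared. Of 12119 genes tested, 264 (2.18%) were higher in ER-Hoxb8 MLC than in BMD MLC and 579 (4.78%) lower. Quantile normalization gave 391 and 335, raising the share that were higher from 31.3% to 53.9% as the median of all genes went from -0.22 to -0.03. The DEGs numbered 1364 with the WTHox libraries alone.

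Interferon-stimulated genes led that comparison too: 37 of 49 were higher in ER-Hoxb8 MLC than in BMD MLC and 0 lower (median log2FC 3.06, beside -0.22 for all genes). Lymphocyte and NK markers moved with them, 8 of 15 higher and 0 lower (median 2.70), and neutrophil markers were lower in 6 of 14 (median -2.68); their part in this comparison was not tested. Gbp8, another guanylate-binding protein, was at 6.52, 7.47 and 8.82 log2 CPM in ER-Hoxb8 MLC and at -3.62, -1.40 and 0.00 in BMD MLC (log2FC 9.15, SE 0.61, adjusted p = 5.31e-09). Not a single library of either group crosses over. Cxcl9 (log2FC 8.97), Gbp6 (8.45), Serpina3f (8.36) and Cxcl10 (8.26) followed. Class I genes were higher in 9 of 16 (median 2.27) and class II genes in 4 of 10 (median 1.40).

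Other lists set the transplanted cells apart less. Homeostatic receptors were lower in 5 of 23 and higher in 1 (median log2FC -1.29), and the other homeostatic genes lower in 4 of 25 (median -1.01). Sall1, at -1.26, -0.07 and 0.79 log2 CPM in BMD MLC, did not pass (log2FC 1.12). Marrow-origin genes were higher in 3 and lower in 4 of 19 (median -0.81), Ms4a6c among those that did not pass (0.65). Border-associated genes were lower in 8 of 20 (median -1.85). Cd163 had 4.58, 5.68 and 6.71 log2 CPM in BMD MLC and -2.35, 0.02 and 2.57 in ER-Hoxb8 MLC (log2FC -5.76, SE 0.86, adjusted p = 8.56e-05), without overlap. The others by the rule were As3mt (log2FC -6.24), Hpgd (-5.98), Cmah (-5.83) and Xlr3b (-5.59). Apoe was lower by the same test (log2FC -2.95), with a BMD MLC median of 14.80 log2 CPM.

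Across the groups, the median gene of the homeostatic lists (48 genes) had a mean of 4.23 log2 CPM in ER-Hoxb8 macrophages in vitro, 6.17 in WTHox, 7.46 in GFPHox, 8.03 in BMD MLC and 9.71 in microglia. For the 49 interferon-stimulated genes the medians were 3.28 in vitro, 4.36 in BMD MLC, 7.29 in WTHox, 7.81 in GFPHox and 2.53 in microglia. These are levels side by side, without a test between the medians. Iigp1 shows the step most plainly: it was at -3.62, the lowest value, in all 3 in vitro libraries, at 2.22 to 3.52 log2 CPM in BMD MLC and at 9.83 to 11.40 in ER-Hoxb8 MLC.

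**Figure D5:**
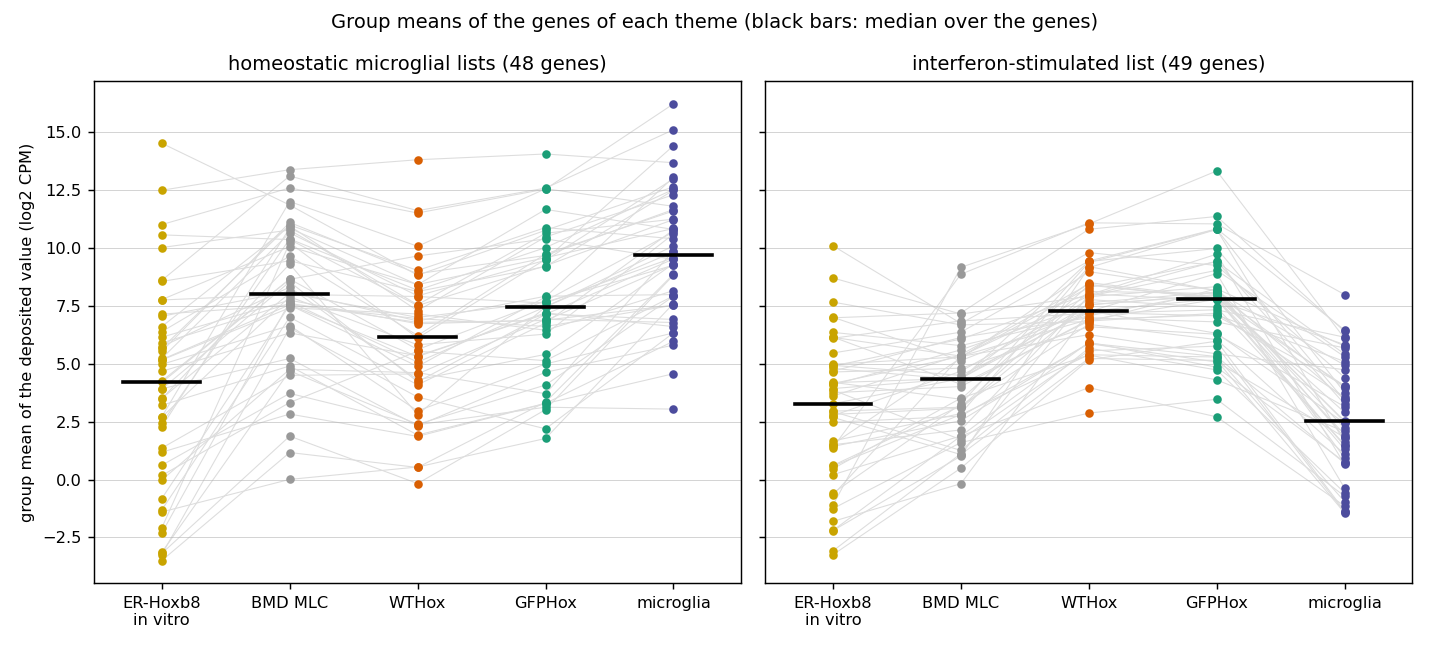
Group means of the deposited values (log2 CPM, y axis) for the genes of the homeostatic lists and of the interferon-stimulated list in 5 groups (x axis); points are genes, grey lines join a gene across groups and black bars are medians. The homeostatic median rises from 4.23 in vitro to 9.71 in microglia, and the interferon-stimulated median is highest in GFPHox (7.81) and WTHox (7.29).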

How the data were processed

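RNA of sorted cells was sequenced, and the authors quantified reads with kallisto 0.46.0 against GRCm39 transcripts and normalized 27 libraries together with edgeR. The deposited values are log2 CPM with a small prior count. Genes that exceeded 1 CPM in 6 or more of the 13 libraries were tested with limma 3.58.1 in R 4.3.3 (moderated t test with a trend), with Benjamini-Hochberg adjustment. A gene passed at adjusted p below 0.05 and log2FC of at least 2 either way. BMD MLC entered a fit of 19 libraries, and the GFPHox and WTHox sets a fit with 3 means. CPM for sums were rebuilt by removing the prior. At the lowest depth, 3 counts equal 0.317 CPM.

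Alternatives covered normalization, prior count, filter, fold limit, libraries, weights, variance model, replicate block and leaving out each library. Genes were named by rule: the 12 largest changes each way without overlap and with a mean of at least 5 log2 CPM in a group, the 5 most abundant DEGs each way, the extreme and most abundant members of 40 lists, microglial markers, and the 5 largest each way in the other comparisons. Members and lists were chosen with earlier results of these data known. Some genes that the rule names are not reported here.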

Additional observations from a re-analysis of the deposited data

Results flagged for a closer look

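Among 80 group values over 39 genes, 2 had a library far from the others of its group, each time WTHox4Lo: Ccl12 at 7.98 log2 CPM and Siglech at 1.43. About 1 group in 20 is marked in this way by chance. WTHox4Lo also had the lowest P2ry12, Tmem119 and Csf1r and the highest Cd3g of the 6 ER-Hoxb8 MLC libraries, and the cause was not tested.

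A further 11 genes differed between the GFPHox and WTHox libraries, although their labels describe the same cells. All were higher in GFPHox, by log2FC: Fcrls 4.66, Gpr56 4.03, Ctsf 3.80, Tmem119 3.52, P2ry12 3.40, Ecscr 3.19, Sparc 3.00, Gm6356 2.66, Gpr165 2.61, Sgce 2.46 and Glrp1 2.43. All are also lower in ER-Hoxb8 MLC than in microglia. That follows in part from how they were picked, as large losses against microglia, abundant DEGs or microglial markers. Over all 11494 genes tested, 274 (2.38%) were higher and 229 (1.99%) lower in GFPHox than in WTHox. Neutrophil and monocyte markers were higher in WTHox, and whether they account for any of this was not tested.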

How the results depend on the processing

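Of 155 named genes in the test 96 were DEGs, of which 79 kept their call under each of the 29 alternatives that tested them and 17 were lost under at least 1; 24 of 59 others were gained. For 4 genes, none of them a DEG in the main fit, a call with part of the libraries reversed the sign of the main log2FC. Over the alternatives Ngp ran from -2.57 to 2.28, Atp11b from -4.67 to 2.50, Asprv1 from -2.35 to 4.80 and Lrg1 from -2.45 to 3.93. The reversed calls were Ngp (2.28) and Atp11b (2.50), higher with only the WTHox libraries. With only the GFPHox libraries Asprv1 (-2.35) and Lrg1 (-2.45) were lower, and Asprv1 was -2.28 with only GFPHox1 and GFPHox2. These compare fewer libraries, and the cause was not tested.

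The 1731 DEGs against microglia became 3076 at a log2FC of at least 1, and 1627 to 1901 when a library was left out. The 843 DEGs against BMD MLC became 443 on the log2(CPM + 1) scale and 546 with a mean CPM above 5, where fewer low genes count, 1364 with only the WTHox libraries, and 711 to 963 with a library left out. The 503 between GFPHox and WTHox ranged from 252 to 1010 with a library left out. With the replicate number as a replicate block the counts were 1743 against microglia and 819 against BMD MLC. After each gene's group mean was taken off, ER-Hoxb8 MLC and microglia libraries of the same number correlated at -0.027 to 0.352. Not every library then correlated best with its own number. The labels do not say whether the numbers pair samples, and these correlations do not settle it. Whole reads were not recovered from the deposited values, and 82 DEGs had 3 counts or fewer in all ER-Hoxb8 MLC, so their folds rest on the prior count. Host genotype goes with group and could not be adjusted for, and no adjustment for sex or preparation was tried.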
